A study of Arabidopsis thaliana with 9 samples.

Results

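ARL (ARGOS-like, AT2G44080) was followed on 9 Affymetrix ATH1 arrays of Arabidopsis thaliana leaves, where it is read by 1 probe set of 22810. The gene was chosen by its signal on these same arrays, which had already been seen to differ in steps between the 3 groups, so its own levels are given below as a description, with no test. The calpain overexpressing plants were Col-0 with a T-DNA knock-out in At1g55350 (DEK1) and a transgene labelled ADEK1 calpain. The calpain null plants carried the same knock-out and background with a transgene labelled ADEK1 calpain null; what null means, the promoter behind either transgene and the number of independent lines are not stated. The wild type was Col-0. Each group had 3 arrays, numbered 1 to 3. Leaves were taken at growth stage 1.14 from plants kept cold for 3 days, held on plates for 7 days and then grown on soil in short days at 21 °C, 6 to a pot. The labels do not say whether the numbered samples came from separate plants or pots, so the p-values given for other genes measure only sample-to-sample spread, part of which may be technical.

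ARL belongs to the ARGOS family, small membrane proteins that set the final size of plant organs. ARGOS itself is induced by auxin and prolongs cell division in young leaves through the transcription factor ANT. ARL is induced by brassinosteroid, a growth hormone sensed by the receptor kinase BRI1, and in plants with more ARL the leaves are larger because their cells expand more. Proteins of this family also lower the response to ethylene, a path that involves RTE1, a partner of the ethylene receptor ETR1. DEK1 is the plant calpain, a cysteine protease at the plasma membrane that is needed to form the epidermis.

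ARL signals were 148, 424 and 469 on the calpain overexpressing arrays numbered 1, 2 and 3. They were 27.2, 280 and 235 on the calpain null arrays and 25.9, 41.0 and 27.2 on the wild-type arrays. Values are MAS5 signals in arbitrary units, scaled by the authors to the same mean on every array. All calpain overexpressing arrays lay above all wild-type arrays, as they did for 12.1% of the 14151 probe sets tested. The calpain null group was split: arrays 2 and 3 were far above wild type, and array 1 lay inside the wild-type range. The calpain overexpressing array numbered 1 lay below both high calpain null arrays, so the transgenic lines overlapped; for 6.26% of probe sets they did not, with calpain overexpressing higher.

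Group means were 347 ± 174 in calpain overexpressing, 181 ± 135 in calpain null and 31.4 ± 8.38 in wild-type leaves (SD, n = 3 each). The order of the means was therefore overexpressing, null, wild type, and only the first and the last were separated by more than their ranges. On the scale of log2(signal + 3.63), ARL was higher by 3.18 in calpain overexpressing than in wild-type leaves, the 15th largest rise of all probe sets tested. It was higher by 1.89 in calpain null than in wild-type leaves, the rise ranking at 27, and by 1.29 in calpain overexpressing than in calpain null leaves, ranking at 50. The array numbered 1 of calpain null leaves decided how wide the last step was. Without it, the difference between the transgenic lines was 0.27 and that of calpain null from wild type 2.92. With array 1 of every group left out, the 3 differences were 3.60, 2.81 and 0.79.

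**Figure D1:**
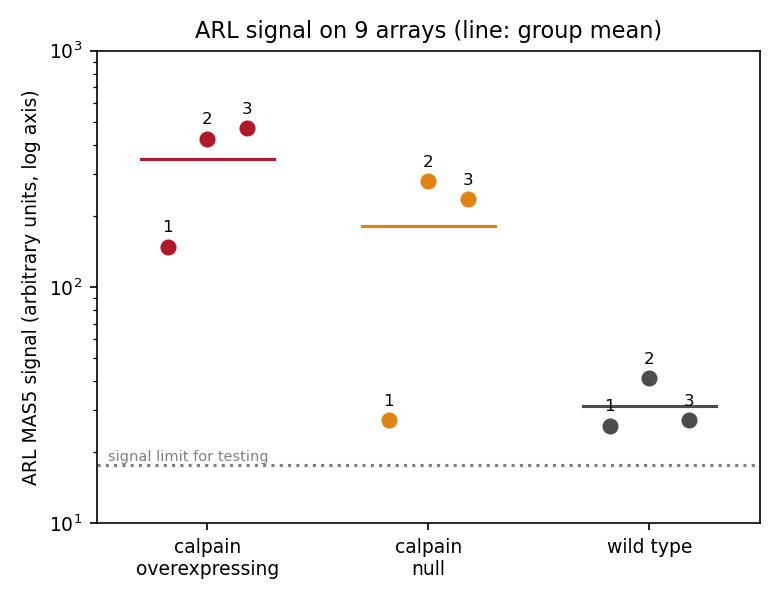
ARL MAS5 signal (log axis, arbitrary units) on each array of calpain overexpressing, calpain null and wild-type leaves; points are arrays with their replicate number, lines are group means and the dotted line is the signal of 17.6 used as a limit for testing. The calpain overexpressing points lie between 148 and 469, above all wild-type points, while calpain null array 1, at 27.2, sits among the wild-type points.

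The spread of ARL within the transgenic groups was among the widest on the arrays. Its SD of log2 signal was 0.91 in calpain overexpressing, 1.78 in calpain null and 0.33 in wild-type leaves. In calpain overexpressing leaves 136 of 14151 probe sets had a wider spread, in calpain null leaves 17, and in wild-type leaves 1707. Signals within calpain overexpressing leaves differed by up to 3.17-fold, within calpain null leaves by up to 10.3-fold and within wild-type leaves by up to 1.58-fold. The array numbered 1 was the lowest in both transgenic groups. It stood at 33.1% of the mean of arrays 2 and 3 in calpain overexpressing leaves and at 10.6% in calpain null leaves. These 2 arrays held 64.6% of the within-group sum of squares of ARL. Differences between groups made up 65.2% of its total sum of squares, where the median probe set had 34.9%.

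Some measures of the arrays moved with this split and others did not. On the arrays numbered 1, the control probe set for 25S rRNA read 160 in calpain overexpressing and 167 in calpain null leaves, against 208 to 384 on the other 7 arrays. The 3′ to 5′ signal ratio of actin, a measure of RNA integrity, was 13.8 and 12.6 on these 2 arrays and lay between 12.3 and 16.7 on the other 7. The actin ratios of the 2 arrays thus lay inside the range of the others. The same ratio for GAPDH was 1.02 in calpain overexpressing and 1.17 in calpain null leaves, against 1.03 to 1.20 on the other 7. Here the calpain overexpressing value lay just below that range and the calpain null value inside it. The part of these measures in the ARL values was not tested. Arrays ordered by their score on the first principal component of all other tested probe sets, which held 39.9% of the variance, came out close to their order by ARL. Scores were -9.45, 27.0 and 34.5 on the calpain overexpressing arrays numbered 1, 2 and 3, against -9.49, 15.7 and 14.7 on the calpain null arrays and -33.1, -19.1 and -20.7 on the wild-type arrays. Pearson's r of this score with log2 ARL signal was 0.932 over the 9 arrays and Spearman's rho 0.95; r was 0.949 without wild-type array 1 and calpain null array 1. As the ARL values fall into 4 low and 5 high arrays, these are descriptions. ARL therefore followed the widest axis of difference among the arrays, but not throughout. The 2 transgenic arrays numbered 1 had nearly the same score but ARL signals of 148 in calpain overexpressing and 27.2 in calpain null leaves. Calpain null array 1 scored above every wild-type array, while its ARL signal lay inside the wild-type range.

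**Figure D2:**
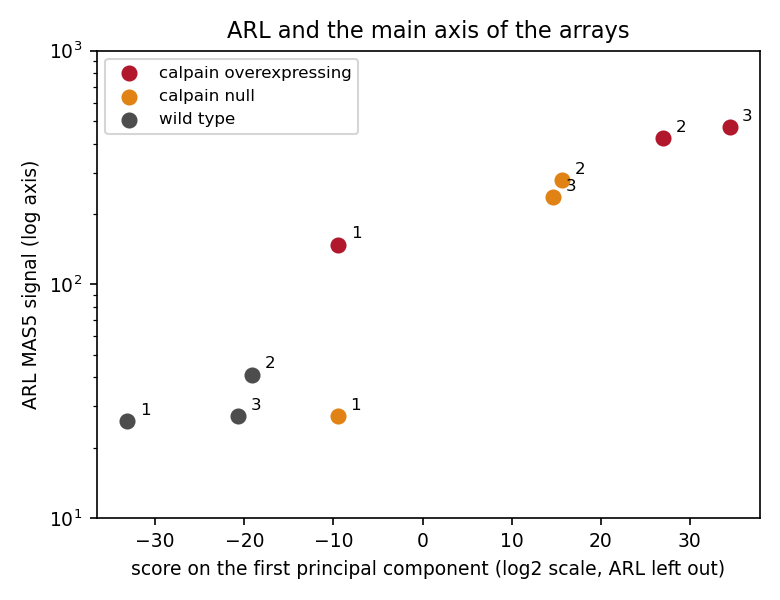
ARL MAS5 signal (log axis) against each array's score on the first principal component of the other tested probe sets (log2 scale); points are arrays, labelled by replicate number and coloured by group. The 4 arrays with the highest scores, numbers 2 and 3 of both transgenic groups, have ARL signals of 235 to 469, and all 3 wild-type arrays have negative scores and signals of at most 41.0.

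As a check of the tissue, 2 of 6 leaf markers could be read, with a summed signal of 4744 to 5439 in calpain overexpressing, 4988 to 6081 in calpain null and 4828 to 5674 in wild-type leaves. Of these, RCA, the Rubisco activase of green leaves, had signals of 4629 to 5330 in calpain overexpressing, 4930 to 6019 in calpain null and 4734 to 5606 in wild-type leaves. LHCB4.3, a light-harvesting protein gene, had a log2 difference of 0.88 between calpain overexpressing and wild-type leaves (limma adjusted p = 0.0753). The root hair expansin gene EXPA7 stayed below the limit for testing on all 9 arrays, and the root marker PYK10 reached 112 in calpain overexpressing, 63.9 in calpain null and 43.3 in wild-type leaves. Flower markers were not analysed here (0 of 4 had a usable probe set). Of 6 markers of young dividing tissue, 2 could be read: the mitotic kinases AUR1 and AUR2. Their summed signal ran from 90.3 to 194 in calpain overexpressing, from 155 to 195 in calpain null and from 149 to 237 in wild-type leaves, with neither at 0. AUR2 had 89.3, 40.6 and 35.5 on the calpain overexpressing arrays, 88.0, 61.6 and 59.5 on the calpain null arrays and 106, 67.2 and 79.0 on the wild-type arrays, so that the array numbered 1 was the highest in every group. AUR2 ran against ARL over the 9 arrays (r = -0.818, rho = -0.883) but was not called between groups by limma (adjusted p = 0.26 for calpain overexpressing minus wild type). AUR1 had 105, 79.4 and 54.8, then 106, 93.4 and 107, then 131, 81.4 and 105 in the same order (r = -0.626, rho = -0.767). Its array numbered 1 was thus not the highest in calpain null leaves. It was not called either (limma adjusted p = 0.33 for calpain overexpressing minus wild type). The part of dividing tissue in the ARL values was not tested, and in whole leaves fewer cells of a type and less RNA per cell cannot be told apart. The senescence marker SAG101 had 15.9 to 21.3 in calpain overexpressing, 24.5 to 38.2 in calpain null and 14.3 to 20.2 in wild-type leaves (limma adjusted p = 0.176 for calpain null minus wild type).

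The probe sets that followed ARL most closely were ranked by Pearson's r of log2(signal + 3.63) over the 9 arrays. Because they were picked for this likeness, neither r nor their differences between groups carry a test. ARL itself had no signal between 41.0 and 148, so a high r means above all that a gene shared the division into 4 low and 5 high arrays. Of 14150 other probe sets, 189 (1.34%) had an r of at least 0.9 and 92 (0.65%) had an r of -0.9 or lower, where the median absolute r was 0.449. Of the 189, 93 had a single named gene, 2 had several genes and 94 had none listed in the annotation. That number of 189 became 370 when array 1 of calpain overexpressing leaves was left out, 354 when array 1 of calpain null leaves was, and 692 when array 1 of every group was.

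Closest of all was scpl35 (AT5G08260), a serine carboxypeptidase-like gene, with r = 0.992 and rho = 0.967. Its signals were 544, 794 and 883 on the calpain overexpressing arrays, 231, 637 and 533 on the calpain null arrays and 241, 296 and 245 on the wild-type arrays. As with ARL, calpain null array 1 fell to the wild-type level, and calpain overexpressing array 1 stood between the low and the high arrays. The amplitude was smaller: a change of 1 in log2 ARL went with 0.45 in log2 scpl35.

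LCR69 (AT2G02100), a small cysteine-rich protein of the defensin type, had 1837, 2380 and 2538 on the calpain overexpressing arrays, 1189, 2443 and 2014 on the calpain null arrays and 1023, 1145 and 1154 on the wild-type arrays (r = 0.985, rho = 0.917). IQD22 (AT4G23060), of the IQ67-domain calmodulin-binding proteins, had 74.7, 109 and 121, then 44.4, 81.8 and 76.8, then 40.2, 47.1 and 40.9 in the same order (r = 0.985, rho = 0.983). In both genes the lowest calpain overexpressing array exceeded every wild-type array. IQD22 had calpain null array 1 inside the wild-type range, while LCR69 had it just above.

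IAGLU (AT4G15550), which joins glucose to the auxin indole-3-acetic acid, had 73.2, 120 and 130 in calpain overexpressing, 40.2, 89.0 and 87.3 in calpain null and 25.5, 37.3 and 36.0 in wild-type leaves (r = 0.98, rho = 0.95). It was 1 of 2 among the 15 closest genes in which every calpain null array exceeded every wild-type array, as in 13% of all probe sets; LCR69 was the other. FDH (AT5G14780), the mitochondrial formate dehydrogenase, had 330, 630 and 959 in calpain overexpressing, 157, 541 and 642 in calpain null and 92.5, 182 and 139 in wild-type leaves (r = 0.974, rho = 0.933). FDH covered a wider range than most, with 0.67 in log2 FDH for 1 in log2 ARL.

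AT5G57760 was the only one of the 15 to change by more than ARL, with 1.09 in log2 for 1 in log2 ARL. Its signals were 55.8, 172 and 248 in calpain overexpressing, 10.2, 182 and 187 in calpain null and 8.78, 21.1 and 7.32 in wild-type leaves, where 2 of the 3 arrays lay below the limit for testing and folds depend on the pseudocount. AT3G53250, a SAUR-like gene of the auxin-responsive class, had 29.7, 79.2 and 75.2 in calpain overexpressing, 4.22, 24.6 and 28.3 in calpain null and 4.83, 10.3 and 3.94 in wild-type leaves. All its wild-type signals and calpain null array 1 lay below the limit for testing, so its folds also depend on the pseudocount. AT3G53250 was the only one of the 15 in which all calpain overexpressing arrays lay above all calpain null arrays, a share close to the 6.26% of all probe sets. It was also the last of the 15, with r = 0.965; AT5G50335, next in order, had r = 0.965 as well.

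The others of the 15 were AT4G27900, AT5G56220, AT3G14220, AT4G14930, AT1G21830, AT4G33540, RHF1A (AT4G14220), a RING-type ubiquitin ligase gene, and DPL1 (AT1G27980), which encodes a lyase of sphingolipid breakdown. Over all 15, r ran from 0.965 to 0.992 and rho from 0.85 to 0.983. Their slopes ran from 0.14 to 1.09 in log2 for 1 in log2 ARL, with a median of 0.44, so most kept the order of the arrays at a smaller scale. Among themselves the 15 had a pairwise r of 0.906 to 0.991. In all 15 the array numbered 1 was the lowest of its group in both transgenic lines, and all calpain overexpressing arrays exceeded all wild-type arrays (12.1% of all probe sets had calpain overexpressing above wild type without overlap). ARL has both features, so picking genes for likeness to it favours them. In 13 of 15, calpain null array 1 was at or below the highest wild-type array.

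**Figure D3:**
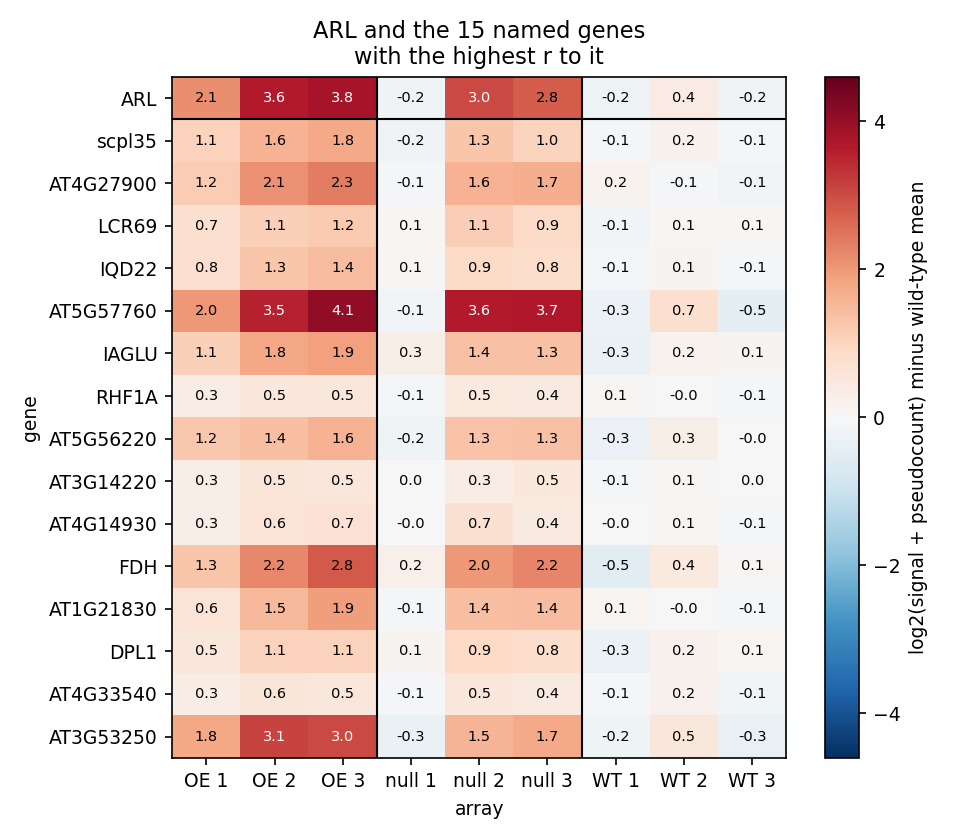
log2(signal + 3.63) of ARL and the 15 named genes with the highest r to it, given as the difference from the gene's wild-type mean, on 9 arrays (OE, calpain overexpressing; null, calpain null; WT, wild type). Red columns mark arrays 2 and 3 of both transgenic groups, the OE 1 column is paler, and the null 1 column is as pale as the WT columns. ARL, AT5G57760 and AT3G53250 have the deepest colours. Most wild-type signals of AT5G57760 and all of AT3G53250 lay below the limit for testing, so their colours depend on the pseudocount.

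The values inside the groups entered the r by which the 15 were picked, so a likeness there is no separate evidence. After each group's mean had been removed, r of the 15 with ARL ran from 0.924 to 0.994, with scpl35 at 0.994, AT5G57760 at 0.99 and IQD22 at 0.981. Over all probe sets, 230 (1.63%) had such an r of at least 0.9 and 205 (1.45%) of -0.9 or lower. Among the 6 named genes highest by this measure, AT4G16770, AT5G19340 and AT5G62280 were not among the 15. AT4G16770 had 97.5, 130 and 134 in calpain overexpressing, 70.8, 141 and 126 in calpain null and 97.1, 96.0 and 94.3 in wild-type leaves, so calpain overexpressing array 1 was level with wild type and calpain null array 1 was below it. AT5G62280 had 16.3, 97.3 and 105, then 2.02, 155 and 151, then 10.6, 8.68 and 5.96 in the same order, with the calpain null mean of 103 above the calpain overexpressing mean of 72.9. All 3 genes were, like ARL, lowest on the array numbered 1 in both transgenic groups. They were picked for likeness to ARL inside the groups, which favours this feature, so it is no separate evidence. Their differences between groups were not all those of ARL. AT5G19340 had a calpain null mean of 23.7 beside a wild-type mean of 22.6. In AT5G62280 calpain null had the highest mean signal, but on the log2 scale calpain overexpressing exceeded it by 0.22. That log2 order came from calpain null array 1, at 2.02, as calpain null arrays 2 and 3 exceeded every calpain overexpressing array. The arrays numbered 1 of both transgenic groups and all wild-type arrays lay below the limit for testing in this gene. Its log2 differences therefore depend on the pseudocount, and the 0.22 does not settle the order of the transgenic lines. AT4G16770 kept the order of ARL, with means of 120 in calpain overexpressing, 113 in calpain null and 95.8 in wild-type leaves. Leaving out wild-type array 1 and calpain null array 1, the 2 arrays farthest from the median of ARL, r of the 15 ran from 0.945 to 0.993. Without the arrays numbered 1 it ran from 0.948 to 0.999.

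**Figure D4:**
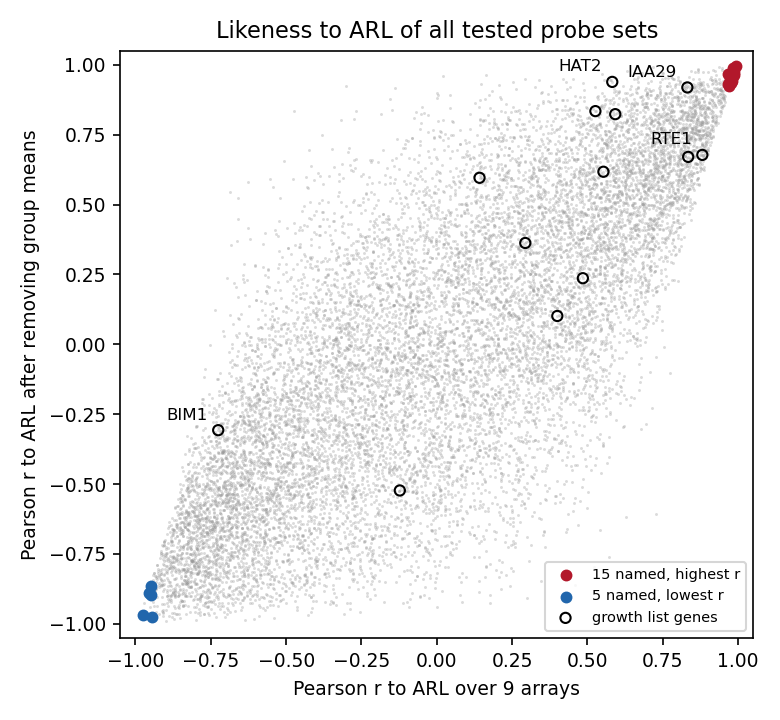
Pearson's r to ARL over 9 arrays (x axis) against r after removal of each group's mean (y axis) for 14150 tested probe sets (grey points), with the 15 named genes of highest r in red, the 5 of lowest r in blue and the growth list genes as open circles. The red points all lie above 0.92 on both axes, and among the open circles RTE1 lies farthest right, at 0.881.

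The 5 named genes running most nearly opposite to ARL were lower in calpain overexpressing than in wild-type leaves, with log2 differences from -1.01 to -0.30. AT4G11100 had 166, 132 and 130 in calpain overexpressing, 204, 148 and 141 in calpain null and 199, 175 and 198 in wild-type leaves (r = -0.975, rho = -0.967). AT5G26790, with the widest difference, had means of 16.5 in calpain overexpressing, 25.9 in calpain null and 35.8 in wild-type leaves. AT5G26790, AT3G02710, AT3G04550 and AT1G75560 had r from -0.954 to -0.946. Over these 5, the log2 change for 1 in log2 ARL lay between -0.30 and -0.10. Among probe sets with no listed gene, the one with the highest r, 0.986, ranked the 9 arrays exactly as ARL did (rho = 1). Its signals were 35.4, 98.5 and 126 in calpain overexpressing, 7.93, 55.1 and 51.5 in calpain null and 3.89, 10.2 and 9.77 in wild-type leaves. The next had r = 0.985 and signals of 11.0 to 28.5, 2.84 to 22.7 and 0.88 to 3.31 in the same order. In both probe sets calpain null array 1 and all wild-type arrays lay below the limit for testing, so each r rests partly on values near the floor.

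Some of the 93 named genes with an r of at least 0.9 have known roles in growth or turnover; the following were picked after their values were seen. WAG2, a protein kinase that acts on auxin transport, had r = 0.954 and means of 40.3 in calpain overexpressing, 17.9 in calpain null and 6.95 in wild-type leaves. BRH1, a RING-type gene named for its response to brassinosteroid, had r = 0.948 and means of 552, 442 and 335 in the same order. Neither that response nor its direction was examined here, so a shared response with ARL cannot be read from this. ATG8C and APG8H, ubiquitin-like proteins of autophagy, had r = 0.944 and r = 0.904, with slopes of 0.15 and 0.16. Most of the 93 moved little: 65 changed by less than 0.25 in log2 for 1 in log2 ARL. By locus code, 15 of the 93 (16.1%) lay on chromosome 2 with ARL, where 14.5% of the named probe sets tested do. Of the few wall-loosening genes tested, none reached an r of 0.9 with ARL. Only 1.34% of all probe sets did, so this says little about these families. The highest in each family were EXPA4 at 0.834 among 9 expansin and expansin-like genes, XTH19 at 0.746 among 3 genes with an XTH symbol and GH9B8 at 0.779 among 6 endoglucanases of glycosyl hydrolase family 9.

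The genes beside ARL on chromosome 2 did not share its pattern. AT2G44090, the next gene in RefSeq TAIR10.1, had 60.4, 75.7 and 75.9 in calpain overexpressing, 79.4, 71.9 and 91.5 in calpain null and 55.6, 86.9 and 70.6 in wild-type leaves (r = 0.225, rho = 0.283), and its groups overlapped. AT2G44065, 1 gene removed on the other side, stayed between 192 and 222 on all arrays (r = 0.159, rho = 0.083). AT2G44060 and AT2G44120, farther out, had r = 0.658 and r = -0.604. In limma none of the 4 was called in any of the 3 comparisons, with log2 differences from -0.28 to 0.22 and adjusted p from 0.275 to 0.987; of the 12 tests, 1 had an unadjusted p under 0.05.

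Among the genes of the pathways around ARL, none was called. The threshold was an adjusted p of 0.05 (Benjamini-Hochberg, over all probe sets tested) in a limma fit to the 9 arrays. It was passed by 1.61% of the 14151 probe sets between calpain overexpressing and wild-type leaves, 0.806% higher and 0.806% lower. Between calpain null and wild type it was passed by 0.0565%, 0.0495% higher and 0.00707% lower. Between calpain overexpressing and calpain null it was passed by 0.523%, 0.247% higher and 0.276% lower. Of 118 listed growth, hormone, light and clock genes other than ARL, 13 could be tested, and 0 of 13 were called in each comparison. At an unadjusted p under 0.05, 3 were higher and 1 lower in calpain overexpressing than in wild-type leaves (18.1% of all probe sets passed there). In calpain null against wild type 5 were higher (17.4% of all), and in calpain overexpressing against calpain null 2 were lower (10.6% of all). Their median log2 differences were 0.19, 0.27 and -0.12, and those of all probe sets 0.01, 0.01 and -0.01. The counts moved with single arrays, as did those over all probe sets. Without calpain overexpressing array 1, RTE1 and IAA29 were called for calpain overexpressing against wild type, with 1789 of all 14151 probe sets. In the same fit IAA29, GH3.5 (WES1) and EIN3 were called for calpain null against wild type, with 491 of all. Without calpain null array 1, RTE1 and IAA29 were called in the first of these comparisons, with 367 of all, and IAA29, GH3.5 (WES1) and HAT2 in the second, with 232 of all. Without calpain null array 3, RTE1 was called in the first, with 174 of all. IAA29 lay below the limit for testing on every wild-type array.

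RTE1, the ethylene receptor partner through which ARGOS proteins are known to act, was the listed gene most like ARL (r = 0.881, rho = 0.833). Its signals were 81.5, 124 and 128 in calpain overexpressing, 60.2, 70.1 and 115 in calpain null and 57.9, 52.3 and 59.6 in wild-type leaves. Both transgenic groups lay above wild type without overlap, though calpain null array 1, at 60.2, was barely above the highest wild-type array. Of all probe sets, 12.1% had calpain overexpressing above wild type without overlap and 13% had calpain null so. Naming RTE1 for its likeness to ARL favours the first of these. Calpain null array 3 lay above the lowest calpain overexpressing array. The log2 difference was 0.90 between calpain overexpressing and wild type (SE 0.23, limma adjusted p = 0.0728) and 0.45 between calpain null and wild type (adjusted p = 0.325). The first passed the threshold in 7 of 21 alternative fits, with adjusted p between 0.00286 and 0.276. EIN3, the main transcription factor of the ethylene response, had a different order: 297 to 308 in calpain overexpressing, 329 to 396 in calpain null and 259 to 271 in wild-type leaves, with calpain null highest (log2 difference from wild type 0.41, adjusted p = 0.115). That difference of EIN3 was called in 3 of 21 alternative limma fits (adjusted p from 0.0278 to 0.355).

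Of 17 listed auxin genes, 4 could be tested. IAA29, an auxin-induced repressor of auxin signalling, had 18.3, 68.3 and 60.1 in calpain overexpressing, 17.9, 138 and 153 in calpain null and 9.21, 4.05 and 8.77 in wild-type leaves. The arrays numbered 1 were the lowest of both transgenic groups, as for ARL (r = 0.832, and 0.919 after removal of group means). All 3 wild-type signals of IAA29 lay below the limit for testing, which it reached only on transgenic arrays. Its differences from wild type therefore depend on the pseudocount, and its calls rest on values near the floor. Its limma adjusted p was 0.128 for calpain overexpressing and 0.0995 for calpain null against wild type. It was called in 6 of 21 alternative fits in each (adjusted p from 0.000286 to 0.418 and from 0.000145 to 0.343). HAT2, an auxin-induced homeobox gene, had 37.6 to 65.5 in calpain overexpressing, 48.7 to 114 in calpain null and 34.2 to 49.7 in wild-type leaves; GH3.5 (WES1), which joins auxin to amino acids, had 29.6 to 66.1, 45.4 to 152 and 27.3 to 33.4 in the same order. GH3.3, of the same enzyme family, had 4.36 to 14.2, 1.06 to 65.5 and 7.28 to 36.0. Adjusted p of these 3 genes lay between 0.116 and 0.991 over the 3 comparisons. For calpain null against wild type, GH3.5 (WES1) was called in 5 of 21 alternative fits (adjusted p from 0.00887 to 0.359) and HAT2 in 4 of 21 (adjusted p from 0.00514 to 0.465).

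Of 30 listed organ size regulators, 5 could be tested and none was called. AT4G36860, a relative of the ubiquitin receptor gene DA1, had means of 95.4 in calpain overexpressing, 100.4 in calpain null and 90.5 in wild-type leaves. AN (ANGUSTIFOLIA), which shapes leaf width, had 151 to 191, 156 to 203 and 160 to 193 in the same order. UBP15, a ubiquitin protease that promotes cell proliferation, had 98.0 to 136, 112 to 133 and 92.0 to 126, and BPEp (BIG PETAL), a limiter of petal cell expansion, 10.4 to 22.7, 3.36 to 22.1 and 8.92 to 18.9. SPT (SPATULA), a repressor of leaf growth, had 20.9 to 25.9 in calpain overexpressing, 20.3 to 37.1 in calpain null and 14.8 to 25.4 in wild-type leaves. The groups of all 5 overlapped, none had an unadjusted p under 0.05, and their log2 differences lay between -0.12 and 0.40 (limma adjusted p from 0.45 to 0.978). The organ shape gene JAG was not tested, with at most 17.4 on any array. Among hormone and clock genes, BIM1, a partner of the brassinosteroid factor BES1, had 118 to 141 in calpain overexpressing, 135 to 172 in calpain null and 164 to 168 in wild-type leaves (log2 difference of calpain overexpressing from wild type -0.34, adjusted p = 0.174). GI, a clock gene of the evening, had 139 to 172, 150 to 166 and 125 to 136 in the same order (0.27, adjusted p = 0.246). Its r to ARL was 0.834, beside 0.832 for IAA29. For calpain overexpressing against wild type, GI was called in 1 of 21 alternative limma fits (adjusted p from 0.0388 to 0.621). ARGOS, OSR1, OSR2, ANT, BRI1 and the other listed genes without a single-gene probe set were not analysed here, among them all 11 of brassinosteroid synthesis and breakdown and all 9 of the light and shade list.

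**Figure D5:**
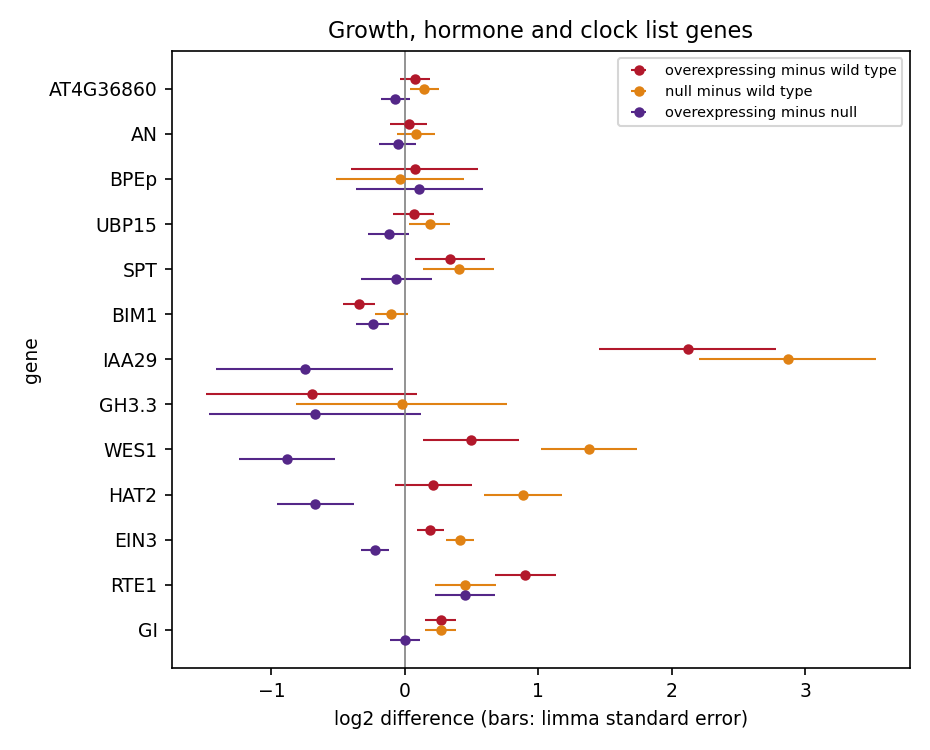
log2 differences (points) with limma standard errors (bars) of the 13 tested growth, hormone and clock genes for the 3 comparisons of calpain overexpressing, calpain null and wild-type leaves. IAA29 has the largest differences, 2.12 and 2.87 against wild type, where its signals lay below the limit for testing. RTE1 is at 0.90 in calpain overexpressing leaves, and the 5 organ size regulators at the top lie between -0.12 and 0.40.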

How the data were processed

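The deposited table holds 1 intensity value for each of 22810 ATH1 probe sets on 9 arrays, made by the authors with MAS5 in GCOS per the submitters' processing notes; biotin-labelled RNA was made by the one-cycle method, per the labels' protocols. Mean signals after trimming 2% at each end were the same on all arrays, so total transcript differences between groups are removed. Detection calls and any genome build are not given in the sources used here. Gene names came from the platform annotation, where 13513 probe sets had 1 gene, 503 several and 8794 none; 13436 matched RefSeq TAIR10.1. None was paired with DEK1, so the targeted gene was not analysed here. Sequences and promoter motifs were not analysed here.

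Signals were taken as log2(signal + 3.63), the 20th percentile of the table, which understates changes of low genes. The 14151 probe sets at or above 17.6 (the 40th percentile) on at least 3 arrays were tested with limma 3.58.1 in R 4.3.3 (intensity trend, 3 group means, 6 residual degrees of freedom, two-sided); 64 control probe sets were left out. Likeness to ARL was computed with numpy 2.4.6 in Python 3.11.15. Both steps were tested on simulated data. ARL, the gene lists (143 entries, 22 with a probe set) and the motifs were chosen with earlier results of these data known. Genes were named by rule: the 15 highest and 5 lowest by r, the 6 highest by r after removal of group means, 2 unnamed probe sets, 2 neighbours on each side, all organ size regulators and up to 3 per other list and comparison. No 2 arrays were identical. The number of arrays limits the precision. Alternatives covered pseudocounts of 1 and 16, filters, quantile normalization, median centring, trend, array weights, fits of 2 groups, the replicate block, probe set types, other measures of likeness and arrays left out.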

Additional observations from a re-analysis of the deposited data

How the results depend on the processing

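The 3 ARL differences kept their sign under every alternative run and moved by less than the pooled within-group SD of 1.17. Calpain null array 1 alone held 51.2% of the sum of squares behind that SD, so this is a wide measure. With arrays left out in turn, calpain overexpressing minus wild type lay between 2.89 and 3.71. Calpain null minus wild type lay between 1.32 and 2.92, and calpain overexpressing minus calpain null between 0.27 and 1.87. The 2.92 and the 0.27 came from leaving out calpain null array 1. In the order of these comparisons, the counts called over all probe sets were 228, 8 and 74. Left-out arrays gave 26 to 1789, 1 to 491 and 25 to 172, each of the 9 arrays moving at least 1 count by over 1.5 times. Array weights gave 2663, 619 and 238, and leaving out all arrays numbered 1 gave 1923, 1122 and 373. Without a filter the counts for calpain overexpressing against wild type and against calpain null were 76 and 39, without the trend that for calpain overexpressing against wild type was 102, with the stricter filter that for calpain null against wild type was 16, and in fits of 2 groups those for calpain null against wild type and calpain overexpressing against calpain null were 263 and 24. Growth list genes called, 0 in each comparison, became 0 to 2, 0 to 3 and 0 with arrays left out; 3 and 4 in the first and second with array weights; 2 and 1 in fits of 2 groups; and 2, 4 and 2 without the arrays numbered 1. The cause was not tested. Probe sets with an r of at least 0.9 numbered 189, 163 to 370 with arrays left out, 304 on linear signals and 692 without the arrays numbered 1. Of the 15 named genes closest to ARL, all were among the 50 closest in every leave-one-out setting. Among the 50 closest were 7 by Spearman's rho, 9 on linear signals and 11 without the arrays numbered 1. In the same order 4, 5 and 5 stayed among the 15 closest. In these settings, with the replicate block and without any 1 of the wild-type arrays, a named gene other than scpl35 came first. Same-numbered arrays share only a number: correlations of their deviations ran from -0.128 to 0.371, and 3 of 9 arrays correlated best with their own number. With the replicate block the counts were 770, 461 and 187 over all probe sets and 2 and 3 growth list genes in the first and second comparison; the ARL differences were unchanged and 238 probe sets had an r of at least 0.9.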
